A study of Homo sapiens with 12 samples.

Results

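Integrins are the cell-surface receptors that tie cells to the matrix around them. Each is a pair of 1 alpha and 1 beta chain, and the pair decides the ligand: the alpha chains ITGA1 and ITGA2 pair with ITGB1 to bind collagen, ITGA3 and ITGA6 bind laminin, ITGA4 and ITGA5 bind fibronectin, and ITGAV pairs with ITGB1, ITGB5 or ITGB8, the last of these being a receptor for latent TGF-beta. ITGB1 is the shared partner of most of these alpha chains. The transcripts of 10 integrin chain genes, taken by symbol from a table of 14438 genes, are described here: ITGA1, ITGA2, ITGA3, ITGA4, ITGA5, ITGA6, ITGAV, ITGB1, ITGB5 and ITGB8. All 10 were in the table and all 10 passed the filter on low counts.

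RNA was sequenced from 4 stable lines derived from HEK293T, an established line of human embryonic kidney cells, in 3 replicates each. The lines carried lentiviral EZH2, the methyltransferase of Polycomb repressive complex 2, which places the repressive mark H3K27me3 on chromatin, mostly at promoters rich in CG. The introduced EZH2 was the wild type (the WT line), a gain-of-function (GOF) mutant (the Y641F and A677G lines) or the loss-of-function double mutant EZH2 H689A/F667I (the LOF mutant). All lines were selected with blasticidin, kept their own EZH2 gene and are described in the methods as monoclonal, so that a line is also a clone and the mutation and the clone cannot be told apart. No line without introduced EZH2 was analysed here, and every comparison with WT shares the same 3 WT samples. The study calls its replicates biological, and how far they were grown apart is not stated further, so the p-values measure the spread between these samples.

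Total counts were 32137700 to 44562413 per sample. EZH2 itself, counted over introduced and endogenous transcripts together, was at 154 to 163 CPM (counts scaled to the same library total in every sample, after TMM factors) in WT, 209 to 228 in Y641F, 165 to 182 in A677G and 206 to 210 in the LOF mutant. The 9 markers set for this line were all in the table, with a summed level of 517 to 531 CPM in WT, 446 to 466 in Y641F, 450 to 471 in A677G and 502 to 508 in the LOF mutant. The lower sums lay in the same lines as the lower integrin levels below, and their part in those results was not tested. PAX2, a kidney transcription factor, was listed at 0 in A677G. Of the markers of other cells, 5 of 8 fibroblast genes were in the table, summing to 14.3 to 15.7 CPM in WT, 17.7 to 27.4 in Y641F, 15.8 to 17.6 in A677G and 15.5 to 19.1 in the LOF mutant. Of these 5, the matrix genes COL3A1 (log2 fold change 1.34) and LUM (0.90) were called higher in Y641F, and 1 gene in A677G. The shares of all genes called higher were 2.09% and 2.07%. None of the 5 was called lower in either GOF mutant. Of the endothelial and tubule lists, 1 gene each was in the table. KDR, an endothelial receptor, was at 0.673 to 0.784 CPM in WT, 0.105 to 0.428 in Y641F, 0.165 to 0.404 in A677G and 0.497 to 0.611 in the LOF mutant, and was called lower in both GOF mutants. LRP2, a tubule receptor, was at 22.0 to 25.4 CPM in WT, 16.3 to 22.7 in Y641F, 16.7 to 19.3 in A677G and 22.5 to 27.7 in the LOF mutant, and was called lower in A677G. The part of these shifts in the integrin results was not tested. Y641F replicate 1 stood apart from the other samples of its line on the first principal component of log2 CPM, at 5.60 against 17.7 and 17.1, and values without it are given beside the integrin results that it moves most.

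The 10 genes differed widely in level. Per kilobase of merged exons, which allows levels of different genes to be compared, ITGB1 was the highest, at 14.0 CPM per kilobase over the 12 samples. ITGAV (5.43), ITGA6 (5.41), ITGB5 (4.75) and ITGA5 (4.46) followed on the same scale, and the ranges of neighbours in this order overlapped. ITGA2 (1.75) and ITGA4 (1.40) formed the next step, also with overlapping ranges. ITGA3 (0.618), ITGA1 (0.430) and ITGB8 (0.119) were the lowest, and their ranges over the samples did not overlap. Among the 13920 tested genes with a known length, the level of ITGB1 lay at percentile 77.5, that of ITGA4 at 26.9 and that of ITGB8 at 3.25. With the length of the longest transcript in place of merged exons, 5 of the 10 genes kept their rank, and ITGA6 moved from rank 3 to rank 5.

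**Figure D1:**
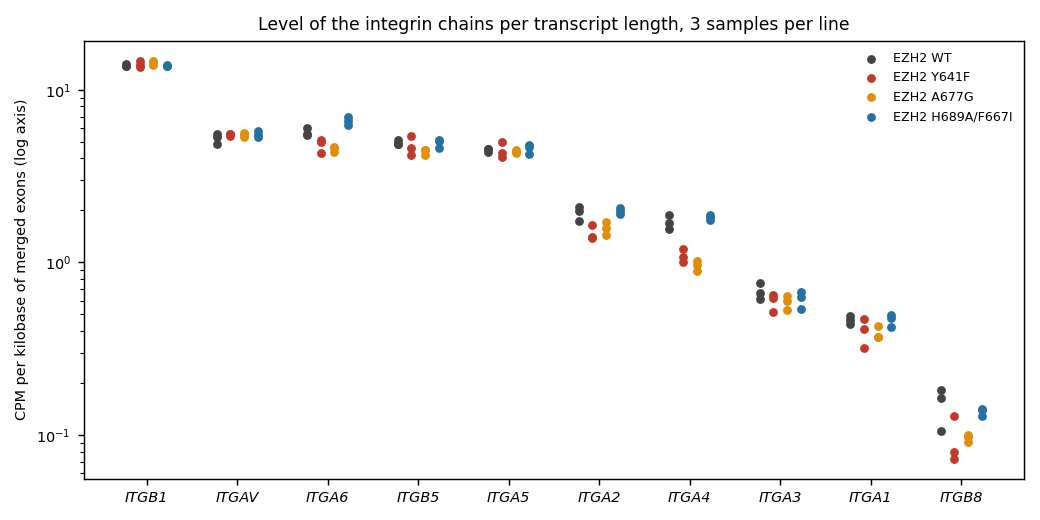
CPM per kilobase of merged exons (log axis) of the 10 integrin chain genes in order of their mean, with 3 points per line coloured by line. ITGB1 stands above the rest at 14.0 on average, and ITGB8 lies lowest at 0.119.

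The results that follow turn on ITGA4, ITGA6 and ITGA2, so sequence upstream of their start sites is shown, with ITGAV, which was called in no comparison, beside them. The bases are those of RefSeq (GRCh38.p14, plus strand) nearest before the start site of the reference transcript (MANE Select) and outside every annotated exon, up to 100 bases, and capitals mark each CG, the letters searched, which read the same on both strands. They are chr2:181457136-181457201 for ITGA4, chr2:172427486-172427585 for ITGA6, chr5:52989240-52989339 for ITGA2 and chr2:186589910-186590009 for ITGAV. The ITGA6 run lies inside the annotated gene, after the first exon of transcripts that start earlier, and reaches its start site. The runs of ITGA4, ITGA2 and ITGAV end at an earlier annotated exon, short of their start sites at 181457386, 52989352 and 186590056. The gap is widest for ITGA4, so the runs do not lie at equal positions.
ITGA4: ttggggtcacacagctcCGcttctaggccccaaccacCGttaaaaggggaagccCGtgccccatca
ITGA6: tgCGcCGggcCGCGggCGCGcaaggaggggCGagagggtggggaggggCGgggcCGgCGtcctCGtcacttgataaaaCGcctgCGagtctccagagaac
ITGA2: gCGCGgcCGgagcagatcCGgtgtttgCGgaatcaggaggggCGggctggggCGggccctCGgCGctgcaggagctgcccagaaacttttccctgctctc
ITGAV: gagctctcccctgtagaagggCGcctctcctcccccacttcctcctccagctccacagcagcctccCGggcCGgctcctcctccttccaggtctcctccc
The run before ITGA6 holds 13 CG in 100 bases, that before ITGA2 holds 9, that before ITGAV 3, and the 66 bases before ITGA4 hold 3. The runs not shown, those of ITGA1, ITGA5, ITGB1, ITGB5 and ITGB8, hold 3 to 15. The highest is that of ITGB1, which was also called in no comparison. Over the whole window of 300 bases around the start site (250 before and 50 after it), ITGA6 has 38 CG, ITGA4 has 31 and ITGA2 has 27. Of the 35116 windows in the table, 9.91% have at least as many CG as ITGA6, 20.6% as many as ITGA4 and 28.2% as many as ITGA2. The other 6 integrin genes with a window have 16 to 39, ITGAV among them with 23, so ITGA6, ITGA4 and ITGA2 lie within the range of the rest. ITGA3 has no window in this table. These counts describe the letters only, and no mark was measured on them here. The study mapped H3K27me3 and open chromatin in these lines and names ITGA2, ITGA4 and ITGA6 among its EZH2 targets. Those maps were not analysed here.

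The first comparison asks how the GOF mutants differ from WT. ITGA4, ITGA6 and ITGA2 fell in both Y641F and A677G, and none of the 10 genes rose. With p-values of edgeR's quasi-likelihood test adjusted (Benjamini-Hochberg) across the 14263 genes tested, 3 of 10 were called lower in Y641F, where 5.59% of all genes were called lower and 2.09% higher. In A677G the count was also 3 of 10, beside 6.48% lower and 2.07% higher among all genes. The median log2 fold change of the 10 genes was -0.20 in Y641F and -0.23 in A677G, and that of all genes was 0.0025 and 0.0045. The 10 genes were chosen with earlier results of these data known. The study names the 3 called genes among its EZH2 targets, a list drawn in part from the RNA of these lines. The counts and medians of the 10 are therefore descriptions and no independent finding about integrins. Of all genes called, 72.8% were lower in Y641F and 75.8% in A677G. After removal of each sample's GC trend by a spline these shares were 46.3% and 39.0%, and by a lowess line, which was tried after the spline's result was seen, 74.8% and 76.5%. The spline also moved the median log2 fold change of all genes, to 0.042 in Y641F and 0.056 in A677G. With the lowess line these medians were -0.0019 and -0.0012. In bulk RNA, fewer cells with a transcript and less of it per cell cannot be told apart.

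**Figure D2:**
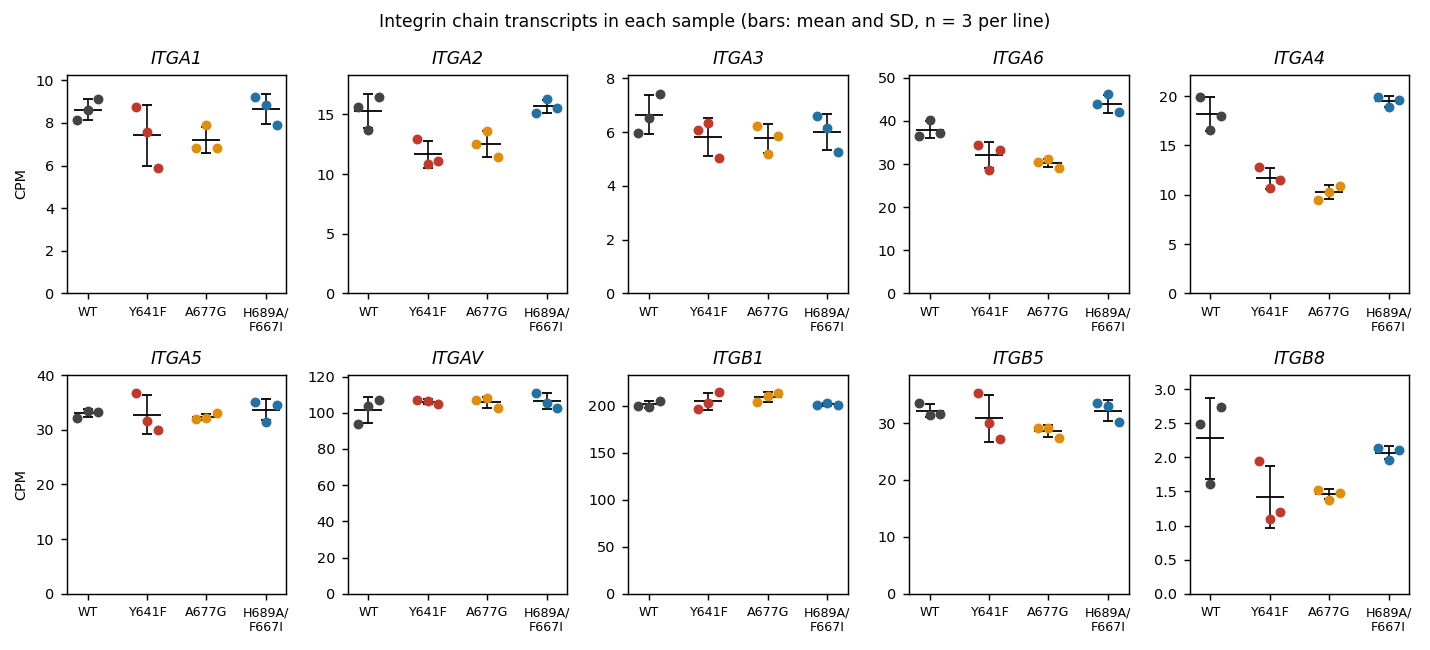
CPM of each integrin chain gene in every sample, in 1 panel per gene with axes from 0, points being samples and bars the mean and SD of 3 replicates. In the ITGA4 panel the 6 samples of Y641F and A677G lie between 9.51 and 12.8 CPM, below all samples of WT and the LOF mutant.

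ITGA4 (ENSG00000115232.14, chr2:181457202-181538940, plus strand, GRCh38) encodes the alpha 4 chain, a receptor for fibronectin and for VCAM1 that is best known on white blood cells. It was at 19.9, 16.5 and 18.0 CPM in WT, at 12.8, 10.7 and 11.5 in Y641F, at 9.51, 10.3 and 10.9 in A677G, and at 19.9, 18.9 and 19.6 in the LOF mutant. Every GOF sample was below every WT and LOF sample. Among all genes tested, 11.7% had every Y641F sample below WT, and 14.7% had every A677G sample below WT. On the log2 scale ITGA4 fell by 0.64 (SE 0.0877, adjusted p = 2.52e-06, edgeR's quasi-likelihood test) in Y641F, from 18.2 ± 1.71 to 11.7 ± 1.06 CPM (SD, n = 3). In A677G it fell by 0.83 (SE 0.0889, adjusted p = 1.74e-08, edgeR's quasi-likelihood test), to 10.2 ± 0.703 CPM. It was the largest called change among the 10 genes in both lines. ITGA4 shares 2813 exon bases with CERKL on the opposite strand, and the strand setting of the counting is not given in the sources used here, so reads of the shared bases may be split between them. CERKL, a ceramide kinase-like gene, was also called lower, with log2 fold changes of -1.79 in Y641F and -1.17 in A677G, at a level of 0.189 to 1.43 CPM over all samples.

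ITGA6 (ENSG00000091409.16, chr2:172427354-172506459, plus strand) encodes the laminin receptor chain of epithelial and stem cells, and pairs with ITGB1 or ITGB4. It was at 36.6, 40.2 and 37.3 CPM in WT, at 34.4, 28.7 and 33.2 in Y641F, at 30.6, 31.1 and 29.2 in A677G, and at 43.9, 46.1 and 42.0 in the LOF mutant. The lines stood in steps, with both GOF mutants below WT and the LOF mutant above it, and no GOF sample overlapped WT. In Y641F the fall was 15.5% (log2 fold change -0.24, SE 0.0620, adjusted p = 0.00928, edgeR's quasi-likelihood test). In A677G it was 20.3% (log2 fold change -0.33, SE 0.0623, adjusted p = 3.24e-04 by the same test). The call in Y641F was lost without WT replicate 2 (adjusted p = 0.102, edgeR's quasi-likelihood test) and without Y641F replicate 2 (adjusted p = 0.0983).

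ITGA2 (ENSG00000164171.11, chr5:52989340-53094779, plus strand) encodes a collagen receptor chain found on platelets and epithelia. It was at 15.6, 13.7 and 16.5 CPM in WT, at 13.0, 10.9 and 11.1 in Y641F, at 12.6, 13.6 and 11.4 in A677G, and at 15.2, 16.3 and 15.6 in the LOF mutant. The groups did not overlap, but the highest A677G sample and the lowest WT sample were nearly level. In Y641F ITGA2 fell by 0.39 on the log2 scale (SE 0.0922, adjusted p = 0.00500, edgeR's quasi-likelihood test). In A677G the log2 fold change was -0.28 (SE 0.0917) and its adjusted p of 0.0496 by edgeR's quasi-likelihood test lay just under the threshold of 0.05. Of 25 alternative fits, 14 kept the A677G call, and with the replicate number as a block it was lost (adjusted p = 0.0535, edgeR's quasi-likelihood test).

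The other collagen and laminin chains did not pass the test. ITGA1 (ENSG00000213949.10, chr5:52787916-52959209), the neighbour of ITGA2 on chromosome 5, was at 8.12 to 9.11 CPM in WT, 5.89 to 8.77 in Y641F and 6.83 to 7.91 in A677G. Its log2 fold changes were -0.22 and -0.26, with 95% confidence intervals of -0.46 to 0.03 and -0.51 to -0.01. Without Y641F replicate 1 the log2 fold change of ITGA1 in Y641F was -0.36 (adjusted p = 0.0709, edgeR's quasi-likelihood test). The second interval leaves out 0 only before adjustment (adjusted p = 0.216, edgeR's quasi-likelihood test). ITGA1 shares 499 exon bases with PELO on the same strand, which was at 39.5 to 46.6 CPM and was not called. ITGA3 (ENSG00000005884.18, chr17:50055968-50090481), a laminin receptor chain of epithelia, was at 5.04 to 7.42 CPM over all samples, with log2 fold changes of -0.19 and -0.20 and intervals that held 0.

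ITGA5 and ITGAV, the classical fibronectin and vitronectin receptor chains, stayed near the WT level. ITGA5 (ENSG00000161638.11, chr12:54395261-54419266, minus strand) was at 33.0 ± 0.745 CPM in WT, 32.8 ± 3.49 in Y641F and 32.3 ± 0.580 in A677G (SD, n = 3). The 95% confidence intervals of its log2 fold changes were -0.14 to 0.12 and -0.16 to 0.10. Without Y641F replicate 1 its log2 fold change in Y641F was -0.10, in place of -0.0083. ITGAV (ENSG00000138448.13, chr2:186590010-186680901), which lies on the same chromosome as ITGA4 and ITGA6, was at 93.6, 104 and 107 CPM in WT, 107, 107 and 105 in Y641F and 107, 108 and 103 in A677G. Its log2 fold changes were 0.07 and 0.06, with intervals of -0.02 to 0.16 and -0.03 to 0.15. At this depth, changes of the size seen for ITGA4 lay outside the intervals of both genes.

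Among the beta chains, ITGB1 (ENSG00000150093.20, chr10:32887273-33005792, minus strand), the common partner chain, was at 200, 199 and 205 CPM in WT, 197, 203 and 215 in Y641F, and 204, 211 and 214 in A677G. The groups overlapped and the log2 fold changes were 0.02 (95% confidence interval -0.05 to 0.10) and 0.06 (-0.02 to 0.13). ITGB5 (ENSG00000082781.12, chr3:124761948-124901418, minus strand), a vitronectin receptor chain with ITGAV, was at 31.5 to 33.5 CPM in WT, 27.2 to 35.2 in Y641F and 27.5 to 29.2 in A677G. All A677G samples were below WT, but the log2 fold change of -0.17 did not pass the adjustment (adjusted p = 0.147, edgeR's quasi-likelihood test). In Y641F the log2 fold change of ITGB5 was -0.06, and -0.17 without Y641F replicate 1 (adjusted p = 0.117, edgeR's quasi-likelihood test). Groups that separate downward in this way were common, at 14.7% of all genes in A677G. ITGB8 (ENSG00000105855.10, chr7:20330702-20415754), whose pair with ITGAV binds latent TGF-beta, was the rarest, with 42 to 92 counts per sample. It was at 2.49, 1.60 and 2.75 CPM in WT, 1.95, 1.10 and 1.21 in Y641F, and 1.53, 1.38 and 1.48 in A677G. Its log2 fold changes of -0.67 (SE 0.241) and -0.63 (SE 0.240) were as large as that of ITGA4 in Y641F, with a wider error, and were not called (adjusted p = 0.0840 and 0.102, edgeR's quasi-likelihood test). Without Y641F replicate 1, ITGB8 was called in Y641F (adjusted p = 0.0124, edgeR's quasi-likelihood test), and without WT replicate 2 in both mutants (0.0364 and 0.0413).

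**Figure D3:**
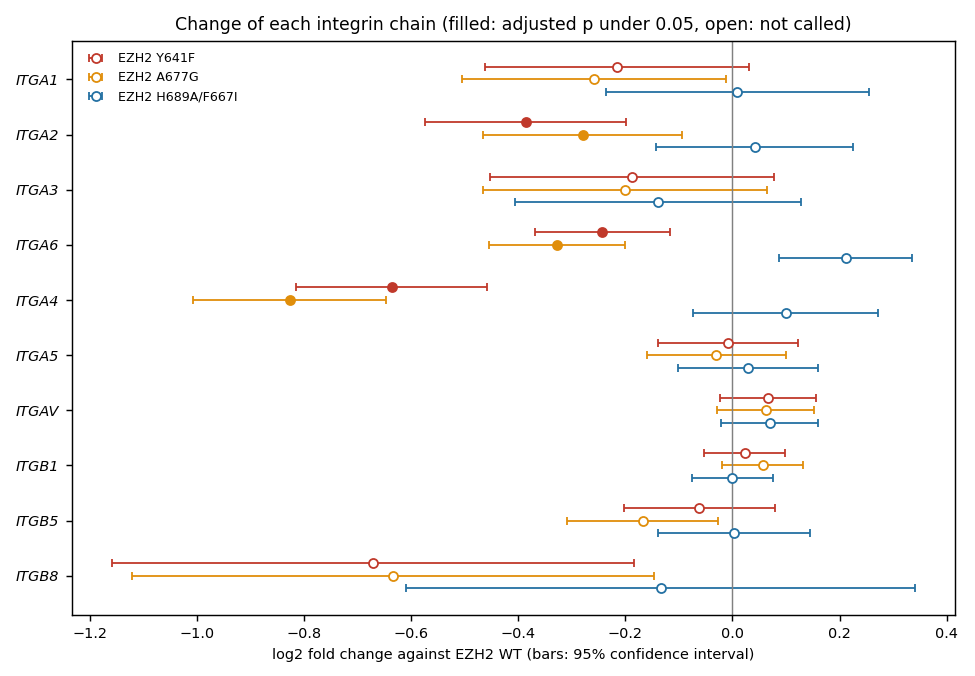
Log2 fold change of each integrin chain gene against WT in the 3 mutant lines, with 95% confidence intervals and filled points where the adjusted p is under 0.05. ITGA2, ITGA6 and ITGA4 are filled and left of 0 in both GOF mutants, and no point of the LOF mutant is filled.

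Scaled to length, the makeup of the alpha chains shifted with these changes. ITGA4 made up 8.46% ± 0.997 (SD, n = 3) of the summed level of the 7 alpha chains in WT, 5.97% ± 0.213 in Y641F, 5.37% ± 0.426 in A677G and 8.48% ± 0.258 in the LOF mutant. ITGA6 had the largest share in WT (28.2% ± 1.32) and in the LOF mutant (30.6% ± 1.27). In the GOF mutants ITGAV had the largest share, at 30.1% ± 1.64 in Y641F and 30.6% ± 0.358 in A677G. ITGAV itself did not rise by the test above: shares sum to the whole, and a share grows when others fall. With the longest transcript as length, ITGAV had the largest share in all 4 lines, at 38.8% to 44.6%, and the ITGA4 share again was lower in the GOF mutants, at 5.65% and 5.07% against 8.25% in WT. The ratio of summed alpha to summed beta levels per kilobase of merged exons was 1.07 ± 0.0348 in WT, 0.970 ± 0.0521 in Y641F, 0.949 ± 0.0213 in A677G and 1.14 ± 0.0150 in the LOF mutant. By the longest transcript the ratio was 0.750 in WT, 0.699 in Y641F, 0.679 in A677G and 0.795 in the LOF mutant. Its side of 1 thus depends on the length used. These shares and ratios are descriptions, without a test.

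**Figure D4:**
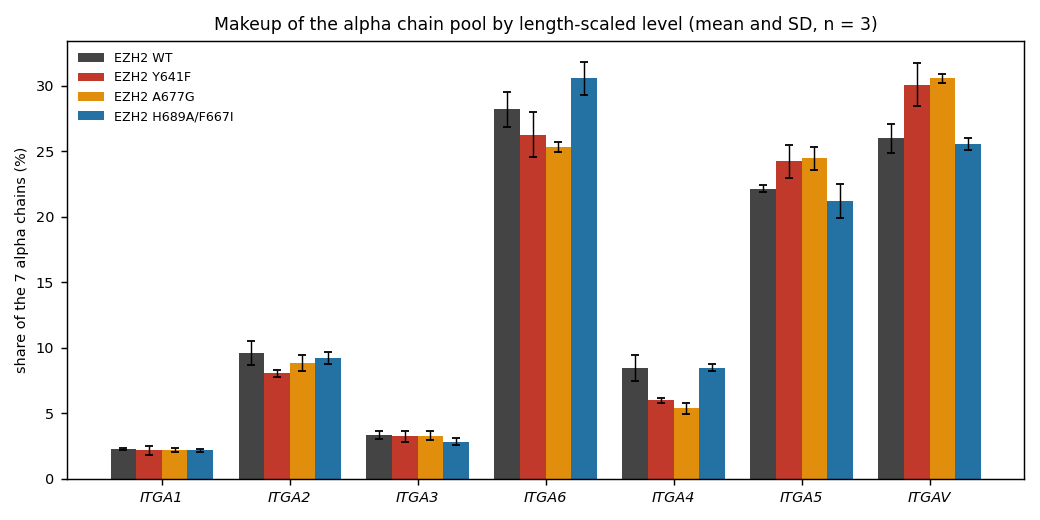
Share of each of the 7 alpha chains in their summed CPM per kilobase of merged exons (%), by line, as mean and SD of 3 samples. The ITGA4 bars of Y641F and A677G, at 5.97% and 5.37%, are lower than those of WT and the LOF mutant, at 8.46% and 8.48%.

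The LOF mutant was next compared with WT for the same genes. It was introduced beside the cells' own EZH2 gene, so the comparison is not one of absent methyltransferase activity. For this line the study reports less H3K27me3 by mass spectrometry, but maps of H3K27me3 and open chromatin close to WT. None of the 10 genes was called, beside 0.161% lower and 0.14% higher among all genes tested, and 1 of 10 had an unadjusted p under 0.05 by edgeR's quasi-likelihood test. The share of all genes under that unadjusted threshold was not counted, so such counts, here and below, are not read as changes. The alternatives DESeq2, limma voom and the exact test of edgeR also called 0. The background itself moved, from 23 lower and 20 higher genes to 139 and 30 without the filter on low counts, and to 4 and 7 without LOF replicate 1. The gene with an unadjusted p under 0.05 was ITGA6, which was higher in all 3 LOF samples than in WT, with a log2 fold change of 0.21 (SE 0.0612, adjusted p = 0.187, edgeR's quasi-likelihood test). Among all genes tested, 7.89% had every LOF sample above WT. ITGA4 had a log2 fold change of 0.10 (95% confidence interval -0.07 to 0.27), and ITGA2 of 0.04 (-0.14 to 0.23). The median over the 10 genes was 0.02.

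The GOF mutants were then set against the LOF mutant, with no WT sample in the contrast. By edgeR's quasi-likelihood test ITGA2, ITGA4 and ITGA6 were again called lower, 3 of 10, beside 8.75% lower and 3.81% higher among all genes. For the mean of Y641F and A677G against the LOF mutant, ITGA4 fell by 0.83 on the log2 scale (SE 0.0743, adjusted p = 1.72e-10, edgeR's quasi-likelihood test). ITGA6 fell by 0.50 (SE 0.0526, adjusted p = 7.74e-09), with the LOF mutant above WT for this gene. ITGA2 fell by 0.37 (SE 0.0787, adjusted p = 7.67e-04). Without Y641F replicate 1, 6 genes were called in this contrast, the added ones being ITGA1 (adjusted p = 0.0252, edgeR's quasi-likelihood test), ITGB5 (0.0239) and ITGB8 (0.0217). The calls among all genes rose as well, from 1248 lower and 544 higher to 1433 and 672. In Y641F replicate 1, ITGA1, ITGB5 and ITGB8 were at 8.77, 35.2 and 1.95 CPM, the highest of its line for each.

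The GOF mutants were also compared with each other. Between Y641F and A677G, 0 of 10 genes were called by edgeR's quasi-likelihood test, beside 0.014% lower and 0.0701% higher among all genes, and 1 of 10 had an unadjusted p under 0.05. DESeq2, limma voom and the exact test of edgeR called 0 as well. Among all genes the calls were 2 lower and 10 higher, 15 and 163 without the filter, and 28 and 29 without Y641F replicate 2. ITGA4 was the gene under 0.05, with a difference of 0.19 on the log2 scale (95% confidence interval 0.01 to 0.37, adjusted p = 0.705, edgeR's quasi-likelihood test). For ITGA6 the interval was -0.04 to 0.21 and for ITGA2 -0.29 to 0.08, so differences of that size between the mutants lie within the error of these data.

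Other genes followed ITGA4 more closely than the integrins did. Among the 12039 genes whose mean log2 CPM was 1 or more, the highest Pearson correlations with ITGA4 over the 12 samples were those of SPON1 (0.983), EPAS1 (0.979), RNF182 (0.978), CDO1 (0.978) and PKIB (0.978). SPON1 encodes a secreted matrix protein and EPAS1 a hypoxia-inducible transcription factor. Their log2 fold changes were -1.09 and -0.59 in Y641F, and -1.28 and -0.72 in A677G. Of the integrins, ITGA6 (0.895) and ITGA2 (0.846) had the highest correlations with ITGA4, and ITGB1 (-0.527) the lowest. The points are 4 lines of 3 samples, so that these values mostly follow the difference between lines.

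The other integrin chains form a short list, and its counts are too small to be read against the shares of all genes. Of 16 further chains 10 were in the table, and 9 were tested, as ITGA10, a collagen receptor chain, was listed at 0 in all 3 LOF samples. In Y641F none of the 9 was called by edgeR's quasi-likelihood test, beside 5.59% of all genes lower and 2.09% higher. Of the 9, 2 had an unadjusted p under 0.05 by that test. In A677G only ITGA9, a receptor chain related to ITGA4, was called among the 9, with a log2 fold change of -1.09 (SE 0.284, adjusted p = 0.0100, edgeR's quasi-likelihood test) at a low level, 1.66 ± 0.0689 CPM in WT and 0.783 ± 0.0688 in A677G (SD, n = 3). Among all genes 6.48% were called lower and 2.07% higher in A677G. In the mean of the GOF mutants against the LOF mutant, the laminin receptor chain ITGA7 (log2 fold change -0.61, SE 0.140) and ITGA8 (-0.33, SE 0.0943), a kidney mesenchyme chain that binds nephronectin, were lower. These were 2 of the 9, beside 8.75% of all genes lower and 3.81% higher. ITGAD, ITGAE, ITGA2B, ITGB3, ITGB4 and ITGB7 were called in no comparison.

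Among the matrix proteins that integrins bind, 19 of 31 listed were tested. In Y641F 4 fell and 1 rose, and in A677G 6 fell and 0 rose, beside 5.59% and 6.48% of all genes lower and 2.09% and 2.07% higher. The list medians were -0.11 and -0.18, and those of all genes 0.0025 and 0.0045. NID2, a basement membrane protein, fell from 35.6 ± 0.359 CPM in WT to 25.0 ± 3.27 in Y641F and 23.8 ± 1.24 in A677G. Its log2 fold changes were -0.51 and -0.58 (SE 0.0679 and 0.0682). FN1, which encodes fibronectin, the ligand of ITGA4 and ITGA5, fell by 0.33 on the log2 scale in Y641F (SE 0.0686) and by 0.36 in A677G (SE 0.0687). FBN2, fibrillin 2, fell by 0.21 in Y641F (SE 0.0445) and by 0.29 in A677G (SE 0.0446). LAMA3, a laminin chain, was the gene that rose in Y641F, by 0.21 (SE 0.0622), and its log2 fold change in A677G was 0.19 (SE 0.0623), which was not called. In the LOF mutant 0 of 19 were called and 2 had an unadjusted p under 0.05 by edgeR's quasi-likelihood test.

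Inside the cell, 44 of 49 listed adaptors and kinases were tested, and most were not called. In Y641F 4 fell and 2 rose, in A677G 3 fell and 1 rose, and in the LOF mutant 1 fell. The shares of all genes were 5.59%, 6.48% and 0.161% lower and 2.09%, 2.07% and 0.14% higher, so that in A677G the list was near the background. The list medians were 0.0065, 0.03 and 0.01, and those of all genes 0.0025, 0.0045 and 0.0024. FERMT1, kindlin-1, which binds beta chain tails to activate integrins, fell by 1.11 and 1.09 on the log2 scale (SE 0.160 in both). It was at 5.98 ± 0.339 CPM in WT, 2.75 ± 0.674 in Y641F, 2.81 ± 0.402 in A677G and 5.31 ± 0.247 in the LOF mutant. DAB2, an endocytic adaptor for integrins, fell by 0.48 (SE 0.108) and 0.72 (SE 0.110). PTK2, the focal adhesion kinase, rose by 0.16 and 0.17 (SE 0.0424 in both), and YES1, a SRC family kinase, rose by 0.19 in Y641F (SE 0.0403), with 0.08 in A677G, which was not called. FLNA, filamin A, fell by 0.16 (SE 0.0338) in the LOF mutant and by 0.14 (SE 0.0338) in Y641F, and its log2 fold change in A677G was -0.08 and was not called.

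Of the 8 latent TGF-beta genes tested, 1 was called in each GOF mutant, beside 2.09% and 2.07% of all genes higher: LTBP1, which tethers latent TGF-beta to the matrix, rose by 0.27 (SE 0.0482) in Y641F and 0.19 (SE 0.0483) in A677G on the log2 scale. In the LOF mutant 0 of the 8 were called, also at an unadjusted p under 0.05, by edgeR's quasi-likelihood test. Of 15 lateral partners, membrane proteins that associate with integrins, 2 fell in Y641F and 3 in A677G, beside 5.59% and 6.48% of all genes, and none rose. CD9, a tetraspanin, fell in both, by 0.25 (SE 0.0682) and 0.26 (SE 0.0683). CD44, the hyaluronan receptor, fell by 1.94 (SE 0.487) in Y641F at a very low level, with 16 to 30 counts per sample in WT (0.690 ± 0.181 CPM) and 2 to 16 in Y641F (0.176 ± 0.178 CPM, SD, n = 3). Its log2 fold change in A677G was -0.87 (SE 0.430) and was not called. CAV1, caveolin-1, fell by 0.53 (SE 0.130) in A677G and had a log2 fold change of -0.29 (SE 0.127) in Y641F, which was not called. In the LOF mutant 0 of 15 were called and 5 had an unadjusted p under 0.05 by edgeR's quasi-likelihood test. Without the share of all genes under that unadjusted threshold, the 5 cannot be read as an effect of the mutant.

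**Figure D5:**
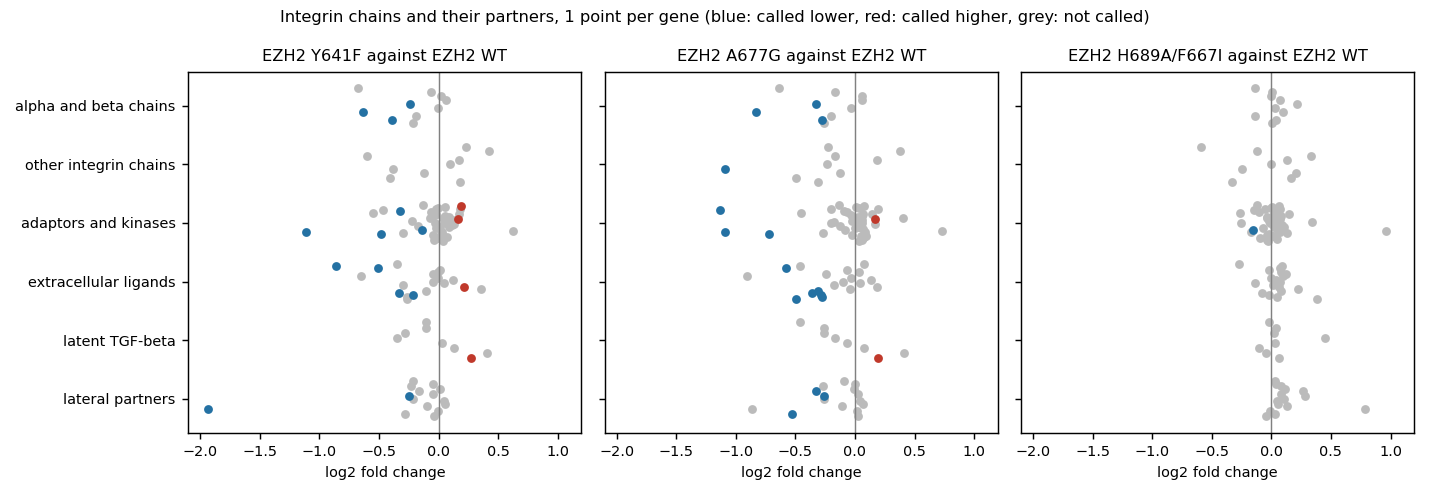
Log2 fold change against WT of every tested gene in 6 lists (rows) for the 3 mutant lines (panels), 1 point per gene, blue where called lower, red where called higher and grey where not called. The alpha and beta chains show 3 blue points in each GOF mutant and none in the LOF mutant, where FLNA is the single coloured point.

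The genes around the called integrins were counted as well. Within 500 kilobases of ITGA4, 3 other genes were tested and 1 was called lower in both GOF mutants, the overlapping CERKL. Near ITGA6, 8 were tested and 1, RAPGEF4, was called lower in Y641F, and near ITGA2, 4 were tested and 0 called by edgeR's quasi-likelihood test. Among the integrins that were not called, genes nearby were called lower in both GOF mutants for ITGA5 (PDE1B and PPP1R1A, of 20 tested), ITGAV (FAM171B, of 2), ITGB5 (KALRN, of 5) and ITGA1 (its neighbour ITGA2, of 3). Near ITGB1, NRP1 was called higher in A677G. Near ITGA3 and ITGB8, 0 of 19 and 0 of 1 were called by edgeR's quasi-likelihood test in either GOF mutant. The shares of all genes called lower were 5.59% in Y641F and 6.48% in A677G, and these counts are too small to be read against them. These neighbours were named after their values were seen.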

How the data were processed

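Poly(A) RNA libraries (TruSeq Stranded mRNA) of 12 samples were sequenced by the authors. The noncoding RNAs RN7SL1, RN7SL2 and RN7SK together made up 8.57% to 10.5% of the counts of a sample. Their part in the scaling of CPM was not tested. Per the submitters' processing notes, Trim Galore 0.6.5, STAR 2.7.9a, Salmon 1.2.0 and edgeR 3.16 were used, on GRCh38. The table the authors deposited holds unnormalized whole-number counts, 1 row per symbol. The step from Salmon to counts, the gene filter and the strand setting are not given in the sources used here.

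Genes at 0 in all replicates of any line (175) were left out, and the other 14263 passed filterByExpr. The main test was that of edgeR 4.0.16 in R 4.3.3 (TMM, quasi-likelihood test, all 12 samples, 1 coefficient per line, Benjamini-Hochberg over all genes, threshold 0.05), in place of the study's exact test, which was an alternative. TMM factors scale the CPM, with a prior count of 2 before log2. Alternatives used DESeq2 1.42.0, limma 3.58.1, other scalings, filters, a replicate block, GC trends (spline with 5 degrees of freedom, and an added lowess line with span 0.4) and each replicate left out. Symbols matched a GENCODE name (13272) or a RefSeq synonym (809), and 357 did not match. The text names the 10 genes, the other integrin chains, up to 2 called genes per direction of each list and contrast with EZH2 WT, and the 5 genes most correlated with ITGA4. Members and lists were chosen with earlier results of these data known. The code was tested on simulated data. No replicate pair of a line agreed within counting noise (chi-square per degree of freedom 3.33 to 14.9). The result of 1 marker list is not reported here.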

Additional observations from a re-analysis of the deposited data

Results flagged for a closer look

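In 3 genes the effect differed between lines by the direct test of both GOF mutants, averaged, against the LOF mutant (edgeR's quasi-likelihood test). The log2 difference was -0.83 for ITGA4, -0.50 for ITGA6 and -0.37 for ITGA2, and for each gene all 6 GOF samples were below all 3 LOF samples. ITGB8, which was not called, separated in the same way, as did 8.77% of all genes tested.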

How the results depend on the processing

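ITGA4 was called in both GOF mutants in all 25 alternative fits, ITGA6 in all 25 in A677G and 23 of 25 in Y641F, and ITGA2 in all 25 in Y641F and 14 of 25 in A677G. The ITGA2 call in A677G was lost with library totals (adjusted p = 0.0610), the replicate block (0.0535), the GC spline without and with the block (0.0587 and 0.0610) and 7 of 12 fits without a replicate (0.0564 to 0.227), and was kept with the lowess line (0.0288, and 0.0316 with the block), by edgeR's quasi-likelihood test. The cause was not tested. The GC alternative was planned as a trend removed by offsets and first fitted as a spline. The lowess line was added after the spline's results were seen, and which trend suits these counts better was not tested. For both GOF mutants against the LOF mutant, the median log2 fold change of all genes was 0.0039. It was 0.051 with the spline and -0.00040 with the lowess line. Among all genes, the calls lower and higher were 797 and 298 in Y641F (spline 699 and 812, lowess 848 and 285), 924 and 295 in A677G (836 and 1309, 993 and 305), and 1248 and 544 for both GOF mutants against the LOF mutant (1099 and 1971, 1357 and 572). Without WT replicate 2 they were 568 and 135 in Y641F. For the LOF mutant against WT they were 23 and 20, with 139 and 30 without the filter, 45 and 31 by edgeR's exact test, 48 and 38 with only the groups compared, 55 and 44 by limma voom, and 4 to 33 and 7 to 32 without a replicate. For Y641F against A677G they were 2 and 10, with 15 and 163 without the filter, 9 and 14 by edgeR's exact test, 8 and 11 by DESeq2, and 1 to 28 and 6 to 29 without a replicate. Same-numbered replicates did not deviate together (median correlation -0.00635, range -0.0557 to 0.0501, and 3 of 12 samples best with their own number), and the replicate block changed no other call of the 10 genes. edgeR's exact test called ITGB8 in Y641F (adjusted p = 0.0417) and could not give the mean of the GOF mutants. limma voom added ITGA1 against the LOF mutant (adjusted p = 0.0455). Without 1 replicate, 3 to 6 genes were called in that contrast. With the longest transcript length, 5 genes kept their rank in the level order. The sign of the log2 fold change changed in 31 of 640 fits of a gene and 31 of 600 without a replicate, none of them called. With the GC spline it was ITGA5 0.041 in Y641F against WT, ITGA5 0.032 in A677G against WT, ITGA1 -0.0016 in the LOF mutant against WT, ITGA3 -0.0024 and ITGAV -0.017 in Y641F against A677G, ITGA5 0.0030 and ITGAV 0.0091 in both GOF mutants against the LOF mutant. With the GC spline and the replicate block it was ITGA5 0.039 in Y641F against WT, ITGA5 0.031 in A677G against WT, ITGA1 -0.0070 in the LOF mutant against WT, ITGA3 -0.0021 and ITGAV -0.017 in Y641F against A677G, ITGA5 0.0030 and ITGAV 0.0091 in both GOF mutants against the LOF mutant. With the lowess line it was ITGA5 0.00080 and ITGB1 -0.0031 in Y641F against WT, ITGA1 -0.0035 in the LOF mutant against WT, ITGAV -0.0048 in Y641F against A677G. With the lowess line and the replicate block it was ITGB1 -0.0035 in Y641F against WT, ITGA1 -0.0090 in the LOF mutant against WT, ITGAV -0.0047 in Y641F against A677G. With upper-quartile factors it was ITGB1 0.00034 in the LOF mutant against WT. With library totals it was ITGA1 -0.0013 and ITGB5 -0.0061 in the LOF mutant against WT, ITGAV 0.0042 in both GOF mutants against the LOF mutant. With the replicate block it was ITGB1 0.00026 in the LOF mutant against WT. With limma voom it was ITGB1 0.0046 in the LOF mutant against WT, ITGA1 -0.023, ITGA3 -0.027, ITGA5 -0.012 and ITGAV -0.00058 in Y641F against A677G. With 1 replicate left out, signs changed as well. In Y641F against WT the ranges were ITGA5 -0.10 to 0.052, ITGB1 -0.013 to 0.051 and ITGB5 -0.17 to 0.021. In the LOF mutant against WT the ranges were ITGA1 -0.043 to 0.067, ITGA2 -0.034 to 0.10, ITGA5 -0.0043 to 0.076, ITGB1 -0.011 to 0.014, ITGB5 -0.027 to 0.046 and ITGB8 -0.34 to 0.017. In Y641F against A677G the ranges were ITGA1 -0.10 to 0.19, ITGA3 -0.058 to 0.11, ITGA5 -0.068 to 0.082, ITGAV -0.015 to 0.020, ITGB5 -0.0028 to 0.19 and ITGB8 -0.34 to 0.11. In both GOF mutants against the LOF mutant the ranges were ITGA3 -0.13 to 0.020 and ITGAV -0.028 to 0.029. ITGB8 had the fewest reads, 42 to 92 counts per sample, and the part of depth in its error was not tested.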
